A study of Drosophila melanogaster with 37 samples.

Results

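The genes described here are the expressed noncoding CR genes of Drosophila melanogaster. They were chosen by 3 conditions: a gene name made of CR and digits only, a position on neither the Y chromosome nor chromosome 4, and a mean TPM (transcript abundance corrected for gene length and for the library total) of at least 5 over the 12 PolyA libraries of the study. Among 17559 genes in the deposited tables, 288 met these conditions. Of the 2444 CR-named genes outside the Y and 4, a further 615 had a mean TPM of 1 to 5, 1469 lay below 1 and 72 were listed at 0 in every library. The mean TPM chose the members, so the levels themselves are given as a description. Just inside the threshold lay CR45363 and CR31054, each with a mean TPM of 5.01, and just outside it lay CR43825 and CR45814, each with a mean TPM of 4.98.

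The libraries came from an isogenic Canton-S strain, a wild-type laboratory strain with no mutation or treatment in any group, and the adults were dissected roughly a day after eclosion. Each of 6 groups had 2 libraries: female head, male head, female body, male body, ovary and testis. The sample called testis is the whole inner male reproductive tract, with seminal vesicle, accessory gland and ejaculatory duct, and the sources used here do not state whether the bodies still held their gonads. What the 2 replicates of a group are, separate collections of flies or repeat preparations, is not stated either, so each p-value below measures only the spread between these libraries. All values are TPM, which have the same sum in each library.

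A CR name is the annotation's mark for a gene model without a protein, and the class is mixed. It holds long noncoding RNAs (lncRNAs), which are transcribed by RNA polymerase II, spliced or not, and often carry a poly(A) tail like an mRNA; antisense RNAs, which run across a coding gene on the other strand; and pseudogenes, the decayed copies of other genes. In flies, as in mammals, the testis is known as a tissue where many lncRNAs are detected. In RefSeq's table for the same genome release, 188 members were lncRNAs, 41 antisense RNAs, 37 pseudogenes and 3 other noncoding RNAs, all 3 named there as hairpin RNA genes. A further 9 members are now listed as protein-coding, and 10 members on unplaced scaffolds had no match. Their annotated exons covered a median of 638 bases over the 275 members found in the current Ensembl annotation, and 133 of these had a single exon.

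In the testis libraries the members held 2.81 and 2.6% of all TPM, in male body 1.05 and 1.20%, and in each of the other 8 libraries 0.363 to 0.562%. At a TPM of at least 1 there were 262 and 271 members in testis and 273 and 279 in male body, against 93 to 124 in the other libraries. These shares move with mt:ATPase8, a mitochondrial gene that held much of the TPM of some libraries. With it left out and each library rescaled, the members held 3.33 and 2.6% in testis, 1.98 and 1.20% in male body, 0.925 to 1.21% in heads, 0.732 and 0.417% in female body and 0.751 and 0.363% in ovary. Replicate 1 of male head (1.21%) then lay above replicate 2 of male body (1.20%). The depth behind these values followed the same split. The median coverage of a member, the average number of reads over each of its bases, was 262 and 145 in testis and 109 and 63.2 in male body, but 0.665 to 6.64 elsewhere. In bulk tissue, fewer cells of a type and less RNA per cell cannot be told apart. Of the 288 members, 168 would fall below a mean TPM of 5 without their highest group, and for 146 of these that group was testis. Those 146 had to be higher in testis to be members at all, so the counts over members below describe the chosen genes and support nothing by themselves. The other 120 members reached 5 without their highest group.

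**Figure D1:**
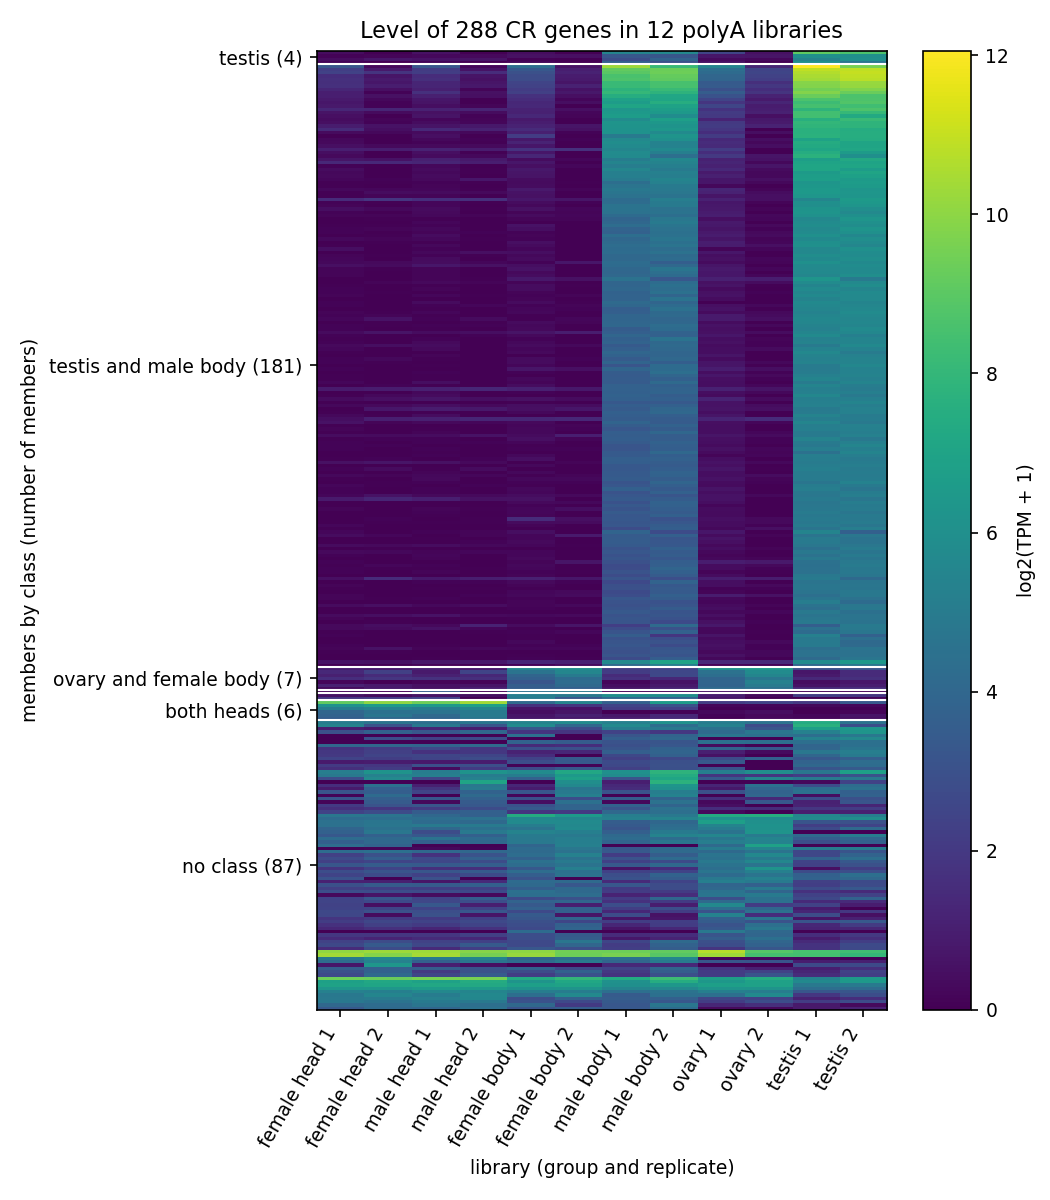
Level of each of the 288 members (rows, sorted by class, then by highest group and mean TPM) in each of the 12 libraries (columns), as log2(TPM + 1). The block of 181 members in testis and male body is brighter in those 4 libraries than in the other 8, while the 87 members in no class at the bottom show mixed patterns.

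Group by group, a gene was placed in a class when it was higher in 1 group, or in both groups of a pair, than in each of the other groups, at an adjusted p under 0.05 and by at least 2 on the log2(TPM + 1) scale. The test was limma on log2(TPM + 1) of the 12882 genes that averaged 1 TPM or more, with Benjamini-Hochberg adjustment within each contrast. Testis together with male body was the class of 181 members (62.8%), against 17.7% of all genes tested. Testis alone held 4 members (1.39%), with a background of 0.241%. The other classes were small. Both heads held 6 members (2.08%, background 5.53%), ovary and female body held 7 (2.43%, background 4.63%), both bodies held 2 (0.694%, background 2.39%) and female body alone held 1 (0.347%, background 0.194%). No member was placed in ovary, male body, female head or male head alone, where the background was 0.00776, 0.0932, 0.00776 and 0.0311%. Any class held 201 members (69.8%), against 30.8% of all genes tested, and the other 87 members fell into none.

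**Figure D2:**
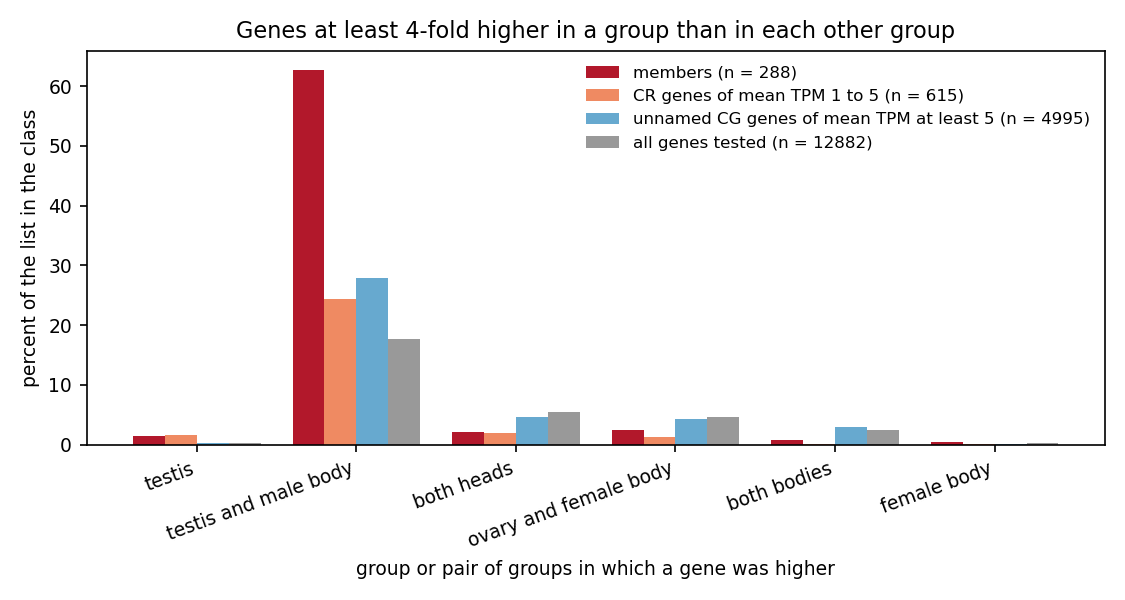
Percent of each list (vertical axis, from 0) in the 6 classes that held any member, for the 288 members, the 615 CR genes with a mean TPM of 1 to 5, the 4995 unnamed coding genes (names of CG and digits) that averaged 5 TPM or more, and all 12882 genes tested. The bar of members in testis and male body stands at 62.8%, and the members' other bars stand at 2.43% or less.

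The 615 less abundant CR genes, which the threshold of 5 left out, were counted in the same way. A high testis level can also carry a gene over the lower limit of 1, so these counts are a description too. Of these, 150 (24.4%) were in testis and male body and 10 (1.63%) in testis alone, while 435 (70.7%) had their highest mean TPM in testis, against 29.5% of all genes tested. The class rule asks for a difference of 2 on log2(TPM + 1), which understates the change of low genes. The class shares of these less abundant genes and of the members are therefore not directly comparable. Of the 4995 unnamed CG genes that averaged 5 TPM or more, 1396 (27.9%) were in testis and male body. Among the 120 members that reached a mean TPM of 5 without their highest group, 44 (36.7%) were in a testis class. Among the 168 that did not, 141 (83.9%) were. Of the 44, 43 were in testis and male body. Leaving out the highest group keeps the other of that pair, so the share of the 120 also describes chosen genes.

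By kind of gene, the members in a testis class were counted beside the 17.9% of all genes tested in either testis class. Of the 188 lncRNAs 150 (79.8%) were in a testis class, of the 41 antisense RNAs 16 (39.0%), and of the 37 pseudogenes 12 (32.4%). Higher in ovary than in testis were 17 of 37 pseudogenes (45.9%) and 18 of 188 lncRNAs (9.57%), where the share of all genes tested was 29.5%. The 9 members now listed as coding had 7 in testis and male body. Of the lncRNAs 120 reached the threshold only through testis, of the antisense RNAs 15 and of the pseudogenes 7, and these counts were not tested against each other.

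The most abundant members of the testis class included a set of lncRNAs on the X chromosome. CR32658, an lncRNA at X:12091264-12092272, had 1637 and 2012 TPM in testis and 500.4 and 684 in male body, against 17.9 and 4.69 in ovary, 6.92 and 1.21 in female body, 4.28 and 2.55 in female head and 3.56 and 1.89 in male head. CR32661 at X:11917806-11918678 had 1465 and 1922 TPM in testis and 391 and 589 in male body, against 0.552 to 14.7 elsewhere. CR32652 at X:12411018-12412181 had 1337 and 1812 TPM in testis and 412 and 554 in male body, against 0.442 to 14.3 elsewhere. In all 3 the 4 libraries of testis and male body lay above the other 8, with no overlap. The class rule already asks for a gap between group means. This statement and the like ones below for members of a class describe the choice and are no further support.

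Among the X-linked testis members, 6 carry the same short stretch at or near their 5′ end, which is shown because it ties together genes that the choice by name and level did not. The stretch was noticed after the levels were known. The first 26 bases of CR32657 were searched for on both strands of the 7 main sequences of the genome (Release 6) with up to 5 mismatches. There were 7 places in all, each on X, and 6 of them, with at most 3 mismatches, lay in members of the testis classes. The seventh, with 4 mismatches, lay in no gene on its strand. In the sequences below, capitals mark bases that differ from CR32657.
CR32657: gctcgtccagagcacaactcgtttcg
CR32660: gctcgtccagagcacaactcgtttcg
CR43157: gctcgtccagagcacaTctcgtttcg
CR32652: gctcgtcTGgagcacaactcgtttcg
CR32661: gctcgtcTGgagcacaactAgtttcg
CR32658: gctcgtccGgagcacaTctcAtttcg

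The stretch begins at base 1 of CR32657 and CR32658, base 5 of CR32652, base 10 of CR32661, base 68 of CR43157 and base 100 of CR32660, counted from the annotated start. The genes sit in 3 places of the X: CR32661, CR43157 and CR32660 in a row between X:11917806 and 11920574 on the minus strand, CR32657 and CR32658 between X:12087211 and 12092272 within the span of Ten-a, a teneurin gene, and CR32652 alone. CR32657 had 899 and 622 TPM in testis and 264 and 222 in male body, and CR43157 had 621 and 399.9 in testis and 180.3 and 142 in male body. Over the 6 genes the summed level was 6492 and 7165 TPM in testis and 1790 and 2239 in male body, which was 23.1 and 27.6% of the level of all members in testis and 17.1 and 18.7% in male body. In the other 8 libraries it was 3.76 to 69.2 TPM. Ten-a had 18.8 to 36.7 TPM in heads and 0.0877 and 0.292 in testis.

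Male body stood at 26.7 to 35.7% of testis in 5 of the 6 genes, but at 8.02 and 12.1% in CR32660. With mt:ATPase8 left out the 5 stood at 42.3 to 48.9% in replicate 1 and 30.6 to 35.7% in replicate 2, and CR32660 at 12.7 and 12.1%. CR32660 and CR43157 are 96.1% identical, and CR32660 also overlaps Sclp on its own strand. How the deposited values divided reads between such copies was not tested. Bases upstream of CR32661 and the start of the transcript are printed here as 1 case, with no claim for the other genes. The window runs from 250 bases before to 50 after the annotated start (X:11918629-11918928, minus strand, Release 6). Capitals mark matches on either strand to TATAAA, the letters of a TATA box, to TCAGT, the core of an initiator, and to ATCGAT, the core of the DNA replication-related element.
CR32661 promoter: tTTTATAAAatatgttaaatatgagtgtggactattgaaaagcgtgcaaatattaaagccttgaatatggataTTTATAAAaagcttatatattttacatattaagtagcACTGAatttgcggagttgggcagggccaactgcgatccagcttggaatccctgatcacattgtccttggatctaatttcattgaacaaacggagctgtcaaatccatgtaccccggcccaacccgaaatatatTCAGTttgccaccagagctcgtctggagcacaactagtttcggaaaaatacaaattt

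A match to TCAGT on the given strand lies just before the annotated start. The TATAAA matches of both strands overlap each other and lie far from it. For comparison, the same window of CR31451, the most abundant head-enriched member (3R:23983253-23983552, plus strand), is printed in the same way.
CR31451 promoter: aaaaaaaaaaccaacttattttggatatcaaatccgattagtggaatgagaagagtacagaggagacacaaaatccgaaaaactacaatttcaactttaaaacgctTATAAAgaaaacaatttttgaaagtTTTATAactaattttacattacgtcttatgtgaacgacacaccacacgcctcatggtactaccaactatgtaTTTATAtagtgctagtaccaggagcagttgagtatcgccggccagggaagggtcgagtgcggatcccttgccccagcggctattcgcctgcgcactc

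Over the promoters of all 17271 genes on the 5 main arms, 44.5% held TATAAA, 50.9% TCAGT and 20.5% ATCGAT, and over the 12707 of genes tested the shares were 43.7, 50.0 and 24.1%. Of the 278 members with such a window 38.8% held TATAAA, 47.5% TCAGT and 11.5% ATCGAT. In the 185 members of the testis classes the shares were 42.7, 51.4 and 9.73%. A TCAGT match on the given strand close to the annotated start, as in CR32661, was uncommon. It was found in 3.24% of these 185, in 4.32% of the 278 members and in 10.8% of the 12707 genes tested. ATCGAT reads the same on both strands, and matches to TATAAA on opposite strands can overlap. A match is a description of letters and not of a site.

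**Figure D3:**
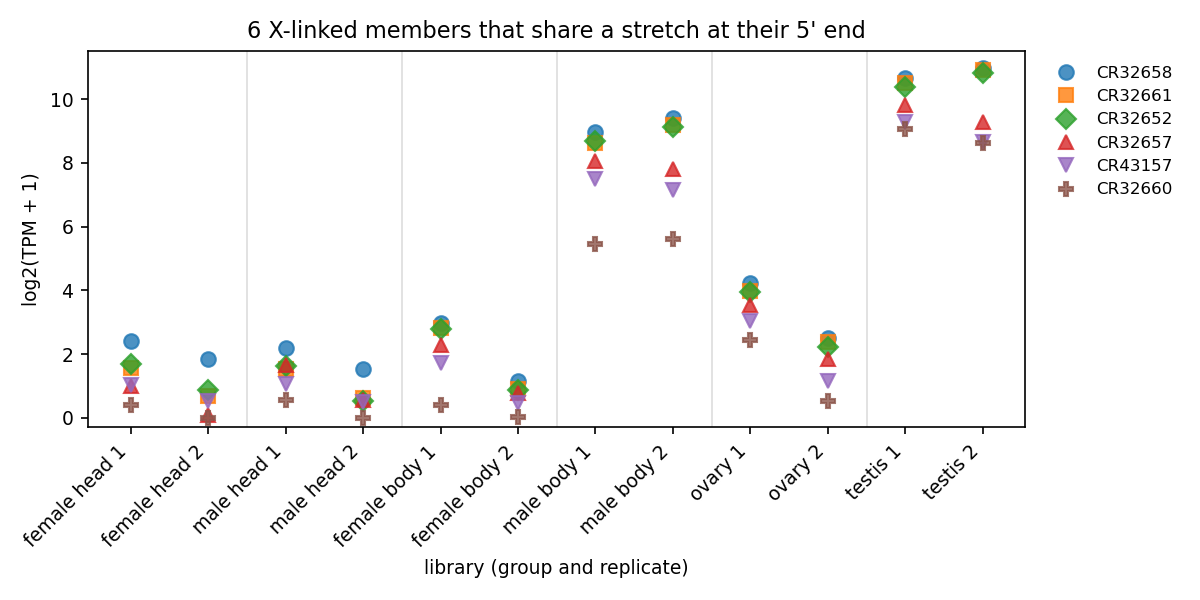
Level of the 6 X-linked members with the shared stretch in each of the 12 libraries, as log2(TPM + 1); each point is 1 library. In the 4 libraries of testis and male body the genes stand between 42.8 and 2012 TPM, and in the other 8 at 17.9 TPM or less.

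A further 2 lncRNAs on the X had the same pattern. CR32690 at X:10204400-10205289 had 924 and 1189.5 TPM in testis and 290.3 and 378 in male body, against 0.616 to 9.62 elsewhere. CR42767 at X:9557539-9558466 had 914 and 1154 TPM in testis and 287 and 369.5 in male body, against 0.701 to 9.88 elsewhere. The 2 on 2R differed in how well their replicates matched. CR9284 at 2R:21803402-21804338 had 1902 and 1935 TPM in testis and 574 and 653 in male body, against 0.525 to 20.1 elsewhere. CR44389 at 2R:17188796-17189095 had 4263 and 776 TPM in testis and 1269 and 280.4 in male body, with 42.2 and 1.41 in ovary. Its smallest difference to another group was 5.87 ± 1.79 (SE), male body minus ovary, at an adjusted p of 0.0150 by limma. The class of CR44389 was lost without replicate 2 of female head, male head, female body or ovary, or without replicate 1 of male body, with the smallest difference then as low as 3.79.

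The levels of the abundant testis members in the other groups were set against testis, library by library. Over the 36 members of the 2 testis classes with a mean testis TPM of at least 100, the level in male body was 30.8% of that in testis in replicate 1 (median; quartiles 29.5 and 33.9%, range 8.02 to 41.3%) and 32.9% in replicate 2 (quartiles 30.8 and 36.4%, range 12.1 to 46.1%). The summed TPM of 13 markers of spermatocytes and spermatids stood at 25.2 and 36.4% of testis in the same libraries, and that of 6 accessory gland genes at 26.3 and 33.7%. With mt:ATPase8 left out the 36 members stood at 48.9 and 32.9% of testis in male body, and the accessory gland genes at 41.8 and 33.7%. Outside the male body the same members were low, and the lower quartile was 0 in replicate 2 of female head and of female body. In ovary they stood at 1.08% of testis in replicate 1 (median; quartiles 0.985 and 1.18%) and 0.230% in replicate 2, in female body at 0.459 and 0.0462%, in female head at 0.194 and 0.0420%, and in male head at 0.170 and 0.0505%. The accessory gland genes, whose products belong to the male reproductive tract, stood at 1.03 and 0.227% of testis in ovary, at 0.399 and 0.0598% in female body, at 0.168 and 0.0469% in female head, and at 0.160 and 0.0526% in male head. With mt:ATPase8 left out, the members stood at 1.28 and 0.230% of testis in ovary, at 0.661 and 0.0462% in female body, at 0.387 and 0.0708% in female head and at 0.317 and 0.0831% in male head. Within a library these 2 shares were close to each other, and in replicate 1 both were higher than in replicate 2. None of the 6 accessory gland genes was at 0 in any library. The 13 spermatogenesis markers stood at 0.604 and 0.868% of testis in female body. In female head they stood at 0.516 and 0.955%, and in male head at 0.666 and 1.14%. In each of these groups replicate 2 was higher than replicate 1, unlike the members. In ovary the 13 markers stood at 1.30 and 1.41% of testis, with sums of 163 and 139 TPM there. The meiotic phosphatase gene twe had 24.1 and 99.3 TPM in ovary, which was 47.7 and 128% of its testis level. The sum of replicate 2 therefore rests largely on twe. In replicate 1 twe stood below Mst84Da (46.7 TPM) and Mst87F (28.0 TPM). Named after their values were seen, the 5 Mst genes and dj, which act in spermatids, each stood at 1.12% of testis or less in replicate 1 of ovary and at 0.178 to 0.316% in replicate 2. Other markers stood higher there, mia at 48.5 and 81.5% of testis and aly at 7.6 and 10.3%. The gene bol stood at 1.73 and 1.03%, fzo at 1.05 and 0.0973%, sa at 1.79 and 0%, and can at 1.57 and 0%. Where the low values of these members in female and head libraries come from was not tested.

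The 4 members in the class of testis alone had lower levels in male body. CR32660 had 533 and 397 TPM in testis, against 42.8 and 48 in male body and at most 4.47 elsewhere. CR45026, an antisense RNA at 3L:5780102-5780863, had 62.5 and 64.1 TPM in testis, against 8.52 and 8.43 in male body and at most 0.651 elsewhere. CR45056, an antisense RNA at 3R:11535495-11536273, had 40.5 and 64.5 TPM in testis, against 6.32 and 12.7 in male body. In these 3 the testis libraries lay above all others. With a library left out, the smallest class difference of CR45056 fell as low as 1.92, below the limit of 2. CR44182, an antisense RNA at 2L:11280057-11280577, had 63.6 and 26 TPM in testis, against 11.8 and 7.03 in male body, and its place in the class was lost in 6 of 22 alternatives, among them without replicate 1 of testis and without replicate 2 of male body. The number of members in this class was 15 without replicate 2 of male body, 10 without replicate 2 of testis and 7 without replicate 1 of either. The 3 antisense RNAs are among the members that reached the threshold through testis.

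The sexes were then compared within each tissue. In heads no member was called, with 0 higher and 0 lower in female head by limma, against 0.0388 and 0.0543% of all genes tested. At an unadjusted p under 0.05 there were 3 members, 1.04% against 1.22% of all genes, named here after their values were seen. CR45601 had 18.8 and 13.2 TPM in female head and was listed at 0 in both male heads, CR43417 had 4.13 and 5.84 TPM in female head against 10.5 and 11.8 in male head, and CR43199 had 3.16 and 2.73 TPM in female head against 6.79 and 6.5 in male head. The adjusted p of CR45601 was 0.31 by limma. It passed with a pseudocount of 0.1 (0.0064), FPKM (0.045), the median of ratios (0.012), quantile normalization (0.016) and without mt:ATPase8 (0.015), all by limma. It did not pass with all genes above 0, a filter of 5 TPM, eBayes without a trend, the replicate block or only the libraries compared.

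In bodies 27 members were higher in female than in male body (9.38%, background 17.3%) and 195 were lower (67.7%, background 25.1%). In gonads 41 were higher in ovary than in testis (14.2%, background 29.5%) and 196 were lower (68.1%, background 30.5%). Among the 10281 genes of any name that averaged 5 TPM or more, 22.6% were lower in female body, 27.5% were lower in ovary and 18.9% were in testis and male body. The median difference over the 288 members on the log2(TPM + 1) scale was -0.0024 between heads, -3.20 between bodies and -4.58 between gonads, against -0.12, -0.01 and 0.07 over all genes tested. The 615 less abundant CR genes had medians of 0, -1.52 and -2.72, with 412 (67%) lower in female body and 437 (71.1%) lower in ovary. The unnamed CG genes had 1605 of 4995 (32.1%) lower in female body and 1895 (37.9%) lower in ovary.

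**Figure D4:**
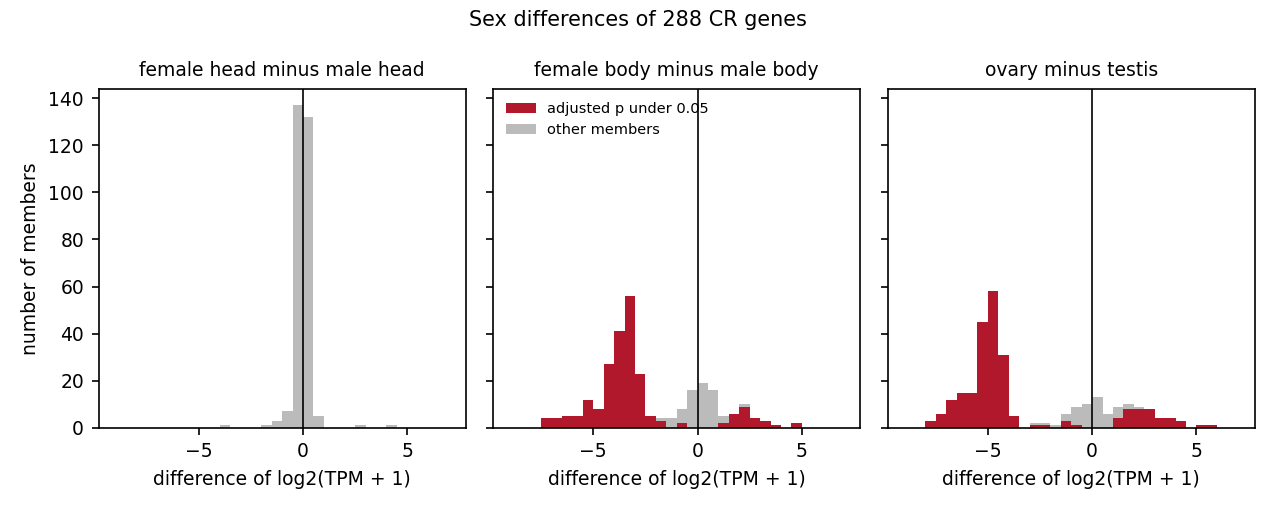
Number of members (vertical axis) by their difference of log2(TPM + 1) between the sexes (horizontal axis), for heads, bodies and gonads, with members at an adjusted p under 0.05 in red and the others in grey. In heads no bar is red and nearly all members lie near 0, while in bodies and gonads most of the red bars lie below 0, with 195 and 196 members, and a smaller group lies above 0, with 27 and 41.

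The steepest falls in female body and in ovary were those of the abundant X-linked and 2R genes above. Female body minus male body was -7.13 ± 0.70 for CR32658 (adjusted p = 1.3e-05 by limma), -7.11 ± 0.90 for CR9284 (8.7e-05), -7.08 ± 0.75 for CR32652 (2.4e-05), -7.04 ± 0.73 for CR32661 (1.9e-05) and -6.79 ± 0.71 for CR32690 (2.0e-05), with SE. Ovary minus testis was -7.53 ± 0.73 for CR32661 (adjusted p = 8.7e-06 by limma), -7.52 ± 0.75 for CR32652 (1.2e-05), -7.52 ± 0.71 for CR32690 (7.1e-06), -7.50 ± 0.90 for CR9284 (4.6e-05) and -7.48 ± 1.79 for CR44389 (0.0049). The call of CR44389 in gonads was lost without replicate 2 of ovary. All of these members would pass the mean TPM of 5 without testis. Male body, where all of them were also high, still counts in that mean. Their p-values are therefore no support apart from the choice.

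Members higher in females were fewer, and several lay within or across coding genes. CR14033, a pseudogene at 2L:5242699-5244239 on the opposite strand of the BMP receptor gene tkv, had 70.5 and 90.1 TPM in ovary and 47.7 and 62.5 in female body, against 6.77 and 7.52 in testis, 3.32 and 4.11 in male body and 0.819 to 1.07 in heads. CR32027, an lncRNA at 3L:18841579-18842786 opposite the citrate transporter gene Indy, had 14.1 and 38.2 TPM in ovary and 8.15 and 18.1 in female body, and at most 0.682 elsewhere. CR43837, an lncRNA at X:6995882-6997799 on the strand of the gap junction gene Inx7, had 13.8 and 31.1 TPM in ovary and 10.7 and 16.4 in female body, and at most 1.14 elsewhere. In each the 4 libraries of ovary and female body lay above the other 8. CR43836, an lncRNA at X:8972908-9048991 that overlaps rdgA, had 22.5 and 54.9 TPM in ovary and 23.6 and 46 in female body, and 0.64 to 5 elsewhere. CR34262, a pseudogene at 3L:21959254-21960503, had 19.4 and 43.7 TPM in ovary and 14.1 and 29.5 in female body, and 0.83 to 5.1 elsewhere. These 2 also had no overlap between those 4 libraries and the rest. CR34262 is 99.81% identical to a stretch of CG7458 over 85.9% of its length. CG7458 had 23.9 and 52.8 TPM in ovary and 16.5 and 35.8 in female body, against 1.13 and 2.18 in testis. How reads were divided between CR34262 and CG7458 was not tested. With a library left out, the smallest class difference of CR34262 fell as low as 1.82, below the limit of 2. The 9 ovary markers summed to 19071 and 35492 TPM in ovary and 10820 and 34830 in female body, against 34.6 to 87.2 elsewhere, and the part of ovary tissue in the female body values was not tested.

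Female body minus male body was 3.57 ± 0.32 for CR14033 (adjusted p = 7.1e-06 by limma), 3.32 ± 0.46 for CR32027 and 3.20 ± 0.38 for CR43837. The last 2 reached a mean TPM of 5 only through ovary, so their differences are given with no p. Ovary minus testis was 3.31 ± 0.32 for CR14033, 4.02 ± 0.46 for CR32027, 3.66 ± 0.38 for CR43837 and 4.08 ± 0.65 for CR43836. In gonads CR44097 had 23.4 and 74.6 TPM in ovary and was listed at 0 in both testis libraries, a fitted difference of 5.43 ± 0.79, and CR43626 had 28.2 and 15.6 TPM in ovary against 0.0524 and 0.0233 in testis, a difference of 4.41 ± 1.00. CR43626 also reached the threshold only through ovary. Without replicate 1 of female body the class of ovary and female body held 11 members.

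Among members higher in female body, the largest differences belonged to 2 antisense RNAs. CR45943 at 3L:20838313-20838700 had 20.6 and 28.5 TPM in female body and was listed at 0 in both male bodies and both testes, while replicate 1 of male head had 11.1 TPM and replicate 2 was listed at 0. Its difference in bodies was 4.66 ± 0.86, given with no p because this member reached the threshold through female body. It was the only member of the class of female body alone, and it left the class in 9 of 22 alternatives, among them without either replicate of female body, without replicate 2 of male head and without replicate 2 of ovary. CR45601 at X:10054235-10055109 had 17 and 119 TPM in ovary, 14 and 37.1 in female body and 18.8 and 13.2 in female head, and was listed at 0 in all 6 male libraries. Its difference was 4.58 ± 0.75 in bodies and 5.54 ± 0.75 in gonads.

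CR45601 lies opposite Yp1, a yolk protein gene expressed in the female fat body and in ovarian follicle cells. Yp1 itself had 3798 and 5822 TPM in ovary, 3117 and 7649.7 in female body and 3292 and 5425 in female head, against 6.1 to 33.9 in the male libraries. The pattern of the pair over the 6 group means had a Pearson's r of 0.980. The PolyA libraries are not stated to keep the strand, so reads of CR45601 and of Yp1 cannot be told apart.

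Overlap of this kind was common. The span of 144 members touched no other gene in the deposited tables, that of 98 overlapped a gene on the opposite strand only, that of 32 a gene on the same strand only, and that of 14 genes on both strands. The most abundant overlapping gene had a higher mean TPM than the member in 81 of 144 cases. Likeness was mixed, with a median r of 0.101 over the 143 pairs that gave one, 24 pairs at 0.9 or more and 69 below 0, each over 6 group means and from the same libraries. Counting exons alone in the current Ensembl annotation, 87 of 275 members shared bases with an exon of another gene.

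Of the 144 members that overlapped no gene 106 (73.6%) were in a testis class, 110 (76.4%) were lower in female body and 108 (75%) were lower in ovary, where the shares of all genes tested were 17.9, 25.1 and 30.5%. Of these 144, 83 reached the threshold only through testis. Of the 98 with an overlap on the opposite strand only, 53 were in a testis class, and of the 32 on the same strand only, 22. The members least like the gene they overlap were all in testis and male body. CR45821, opposite RhoGEF64C, had 26.3 and 26.3 TPM in testis and 9.54 and 9.09 in male body, and at most 0.318 elsewhere (r = -0.981). CR43878, opposite mub, had 20.6 and 30.9 TPM in testis and 5.83 and 11.7 in male body, and at most 0.31 elsewhere (r = -0.975). CR46042, on the strand of Hs6st and now listed as coding, had 20.1 and 27.5 TPM in testis and 7.83 and 10.4 in male body, and at most 0.373 elsewhere (r = -0.970). All 3 were highest in testis. CR45155, opposite dpr6, had 33.4 and 35.1 TPM in testis and 8.9 and 9.9 in male body, and at most 0.407 elsewhere (r = -0.963). CR43905, opposite jing, had 42.9 and 59.95 TPM in testis and 14.1 and 21.1 in male body, and at most 0.543 elsewhere (r = -0.950).

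At the other end, CR31054 and CR45548 are pseudogenes on 3R that overlap each other, and they had an r of 0.999. CR31054 had 10.9 and 20.9 TPM in ovary against 0.869 and 2.08 in testis, and CR45548 had 8.92 and 26.5 TPM in ovary against 1.27 and 1.49 in testis. CR31054 is 100% identical to a stretch of CG4849 over 93.1% of its length. CG4849 had 17.1 and 46.2 TPM in ovary against 1.73 and 4.49 in testis. CR45548 is 100% identical over its whole length to a place where CG4884 and CG42487 lie. CG4884 had 46.4 and 0.317 TPM in ovary and CG42487 0 and 75.8. How reads were divided between such copies was not tested. CR43876, opposite CG32228, had an r of 0.998 to it. CR43876 had 79.5 and 78.1 TPM in testis and 22.4 and 22.9 in male body, and CG32228 had 21.1 and 27.2 TPM in testis and 8.68 and 8.07 in male body.

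Female head was the highest place of 8 members (2.78%, background 3.94%) and male head of 16 (5.56%, background 15.1%). The 9 markers of neurons and photoreceptors summed to 14836 to 16514 TPM in heads, against 30.9 to 123 elsewhere. CR31451 at 3R:23983503-23985065, named lncRNA:mimi in RefSeq, had 552 and 1021 TPM in female head and 683 and 1297 in male head, against 17.1 and 41.2 in female body, 12 and 94 in male body and 3.02 to 8.85 in gonads. The 4 head libraries lay above the other 8. Its smallest difference was 4.42 ± 0.89 (SE), female head minus male body, with the largest adjusted p over the class contrasts at 0.0022 by limma. CR44922 at 3R:4375084-4377600 had 70.8 and 95.6 TPM in female head and 93.6 and 116 in male head, against 2.17 to 6.92 in bodies and 0.14 to 0.197 in gonads. CR44832 at X:5790952-5791536 had 32.5 and 38.7 TPM in female head and 32.5 and 42.9 in male head, and was listed at 0 in both testis libraries. CR45894 runs opposite Pdh, a photoreceptor dehydrogenase gene, with an r of 0.985 to it. CR45894 had 14.9 and 21.8 TPM in female head and 23.1 and 30.1 in male head, and at most 0.612 elsewhere. The pseudogenes CR45495 and CR45497 each match 4 other places, among them the other of the pair, at up to 100% identity over their whole length, and how reads were divided between them cannot be told. CR45495 had 13.3 to 30.3 TPM and CR45497 11 to 24.6 TPM in heads.

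CR42862 at 3L:224106-230964 was abundant everywhere and fell into no class. It had 664 and 636 TPM in female head, 767 and 772 in male head, 162 to 309.9 in bodies, 114.9 and 168 in ovary and a testis level of 39.2 and 94.4. Both bodies was the class of CR43196 and CR44404. CR43196 at 3R:17382129-17382767 had 34.4 and 28.8 TPM in female body and 60.4 and 58.4 in male body, against 0.249 to 3.63 elsewhere. CR44404 is the gene now named IBIN and listed as coding. It had 29.1 and 8.74 TPM in female body and 16.6 and 13 in male body, and its place in the class was lost in 17 of 22 alternatives, among them 10 of the 12 that left out a library.

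**Figure D5:**
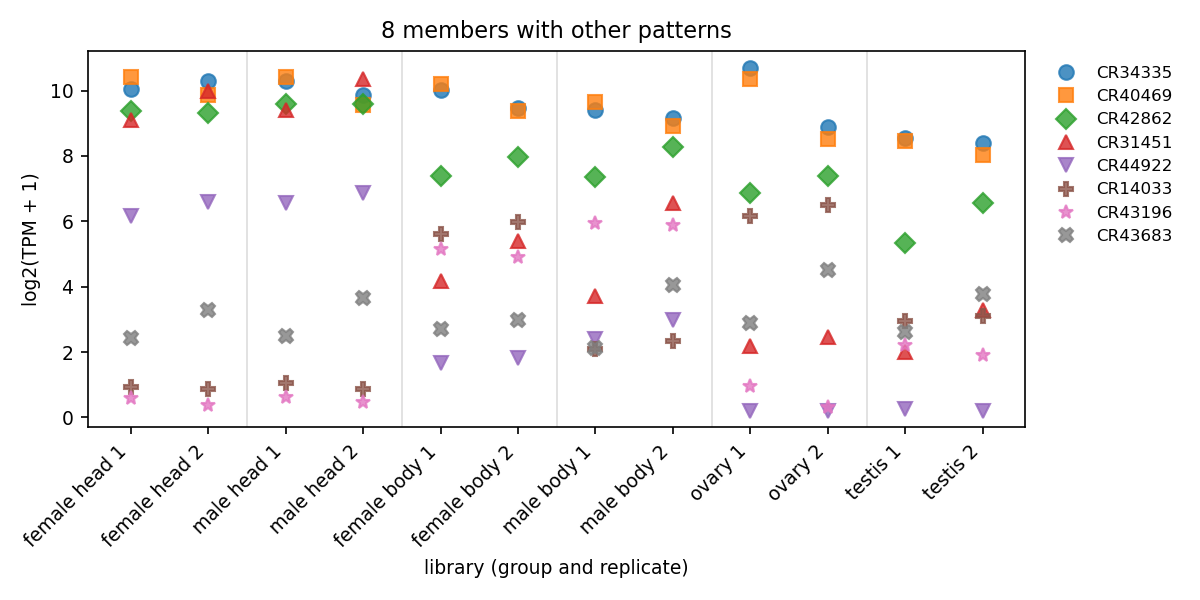
Level of 8 members outside the testis classes in each of the 12 libraries, as log2(TPM + 1); each point is 1 library. CR31451 and CR44922 stand highest in the 4 head libraries, CR14033 in ovary and female body and CR43196 in both bodies, while CR43683 stays between 3.38 and 22 TPM.

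The 2 most abundant members were not testis genes. CR34335 at X:3545862-3546110 had 1062 and 1241 TPM in female head, 1257 and 938 in male head, 1029 and 706 in female body, 678 and 574 in male body, 1654 and 472 in ovary and 375 and 333 in testis. CR40469 at X:122493-122706 had 1357 and 926 TPM in female head, 1361 and 757 in male head, 1180.0 and 668 in female body, 801 and 486 in male body, 1301 and 366 in ovary and 347 and 263 in testis. Both genes had their 2 lowest libraries in testis. Ovary minus testis was 1.32 ± 0.52 for CR34335 (adjusted p = 0.051 by limma) and 1.19 ± 0.61 for CR40469 (adjusted p = 0.12 by limma), and neither passed the test. In the fit blocked on replicate number both passed, at an adjusted p of 0.0149 for CR34335 and 0.0073 for CR40469 by limma. Scaling by the median of ratios turned the differences to -0.15 ± 0.91 and -0.28 ± 1.06. In both genes replicate 1 of ovary was more than 3 times as high as replicate 2, and without that replicate 1 the differences were 0.42 ± 0.42 and 0.28 ± 0.58.

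The sequences of the pair are shown because they are nearly the same, which bears on how far their values are separate measurements. CR34335 is 249 bases long and CR40469 214. They are 99.07% identical over 214 aligned positions, with 1 substitution (T242A, counted from base 1 at the 5′ end of CR34335) and 1 gap, and CR34335 has 36 more bases at its 5′ end. Capitals mark the bases that differ. Both are read 5′ to 3′ on the strand of the gene, from Release 6.
CR34335: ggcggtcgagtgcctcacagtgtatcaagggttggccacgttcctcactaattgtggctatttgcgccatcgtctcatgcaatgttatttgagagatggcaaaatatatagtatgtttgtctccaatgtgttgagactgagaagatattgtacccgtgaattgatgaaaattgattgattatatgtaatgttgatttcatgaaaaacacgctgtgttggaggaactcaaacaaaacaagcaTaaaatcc
CR40469: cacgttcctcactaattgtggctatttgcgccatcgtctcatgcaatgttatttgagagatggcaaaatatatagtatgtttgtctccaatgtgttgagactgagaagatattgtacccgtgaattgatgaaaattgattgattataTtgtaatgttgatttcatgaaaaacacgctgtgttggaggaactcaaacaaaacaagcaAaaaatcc

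Only reads that reach the first 36 bases or the 2 differing positions can be assigned to 1 of the 2 loci.

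Near-identical copies were not limited to this pair. In all, 38 of 288 members had a stretch elsewhere in the genome at 95% identity or more over at least 80% of their length. CR41597, CR42722 and CR42723 on 3L are copies of mRpS5, a mitochondrial ribosomal protein gene. CR41597 had 113 and 120.1 TPM in ovary against 27.9 and 29.3 in testis, and mRpS5 had 126 and 123 in ovary against 21 and 24.2 in testis. CR43482, a copy of the small heat shock protein gene Hsp27, had 172 and 88 TPM in female body against 35.2 and 27.3 in male body, and Hsp27 had 587 and 705 in female body against 118 and 170.3 in male body. CR10102, a copy of Arc1, had 55.4 and 149 TPM in female body against 64.9 and 224 in male body, and Arc1 had 166 and 484 in female body against 207 and 677 in male body. Reads of a copy and of the gene it matches cannot be told apart where their bases are the same. Without the 38 members, 178 of 250 (71.2%) were in a testis class, 188 (75.2%) were lower in female body and 189 (75.6%) were lower in ovary. Over all genes tested these shares were 17.9, 25.1 and 30.5%. Of all 288 members 146 reached the threshold only through testis, so the shares without the 38 still describe chosen genes.

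The flattest members were not stable ones. CR40639 and CR40641, on unplaced scaffolds and alike to 28S ribosomal RNA pseudogenes, had the smallest range of group means together with CR43683, but their replicates split. CR40641 had 13.0 to 39.6 TPM in the 6 libraries of replicate 2 and at most 0.386 in the 6 of replicate 1, and CR40639 had 8.20 to 22.1 and at most 1.14. All 10 scaffold members were in no class. CR43683, an antisense RNA opposite CG5850 at 2L:9961018-9962104, had 3.38 to 22 TPM over the 12 libraries.

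By position, 75 members lay on 2L, 42 on 2R (14.6%), 66 on 3L (22.9%), 50 on 3R (17.4%) and 45 on X (15.6%). Over all genes tested these shares were 19.2, 20.04, 19.3, 24.1 and 16.0%. On 2L lay 63 of the 185 members in testis classes (34.1%), against 575 of all 2310 genes in those classes (24.9%), and on X lay 26 (14.1%), against 301 (13.0%). These shares were not tested.

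As known noncoding genes for comparison, 14 of 15 named ones were found in the tables and 10 passed the filter. The dosage compensation RNAs roX1 and roX2, which coat the male X, were lower in females in all 3 tissues, roX1 with 2.43 and 2.75 TPM in female head against 313 and 589 in male head and 1.05 and 0.676 in ovary against 16.6 and 43 in testis. Of the 7 Uhg genes, which host small nucleolar RNAs, 6 were tested, and all 6 were higher in female body and in ovary. Uhg2 had 57.5 and 43.9 TPM in ovary against 1.21 and 1.34 in testis. So the named noncoding genes tested had 0 higher and 2 lower in female head, 6 higher and 2 lower in female body, and 6 higher and 2 lower in ovary.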

How the data were processed

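PolyA RNA was sequenced in 12 libraries of 6 groups. The other 25 samples of the series were not used here. The authors trimmed the reads, mapped them to dm6 with STAR and annotated genes with Ensembl. Transcripts were assembled with Cufflinks, and the submitters' processing notes also list StringTie version 2.0 without its role. Each deposited table lists 17559 genes with TPM, FPKM and coverage computed by the authors. The deposited coverage (average read depth over a gene) was used only to show depth, and deposited FPKM as an alternative to deposited TPM. TPM keep no read counts, so the precision of a gene's value was judged from its 2 replicates. The mitochondrial gene mt:ATPase8 held 15.7 to 57.6% of TPM in 8 libraries and was listed at 0 in replicate 2 of both bodies, ovary and testis.

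Differences were tested with limma (version 3.58.1, run in R version 4.3.3, empirical Bayes with a trend) on log2(TPM + 1), pseudocount 1, for the 12882 genes that averaged 1 TPM or more, in one model of 12 libraries with one mean per group and all 15 pairwise contrasts, two-sided, with Benjamini-Hochberg adjustment within each contrast. This scale understates the change of low genes. With 2 libraries against 2, an exact permutation test cannot go below 0.333 and was not used. The fit was tried on simulated data with independent noise in each library. That trial covered testis alone, with a smaller difference than the class rule, so it did not check the classes of 2 groups. Libraries with the same replicate number deviated together across genes (r 0.345 to 0.769, median 0.473, above 0.1 in 15 of 15 pairs of groups), so the numbers pair the libraries; what they share is not stated.

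Genes named in the text were the 10 members of highest mean TPM, up to 5 per class and per direction of a sex difference, the 3 with the smallest range of group means, the 2 on each side of the threshold, those least and most like the gene they overlap, and a list of named noncoding genes, beside genes said to be chosen later and relatives or copies of these. The members, lists, markers and tests were chosen with earlier results of these data known. Names and kinds of genes came from RefSeq and Ensembl, sequences from the RefSeq Release 6 genome. Of 269 members matched by locus tag, 260 had the same start and end there. Copies were searched with BLAST version 2.17.0. Python version 3.11.15 with pandas version 2.3.3 and matplotlib version 3.10.9 was used for the rest. Alternatives were a pseudocount of 0.1, all genes above 0, a filter of 5 TPM on the mean, FPKM, median-of-ratios scaling (on 6381 genes at 1 TPM or more in all libraries), leaving out mt:ATPase8, quantile normalization, eBayes without a trend, the replicate block, a model of only the libraries compared, and leaving out each library.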

Additional observations from a re-analysis of the deposited data

Results flagged for a closer look

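For 9 of the members named for a sex difference, the difference in bodies was not the same as that in heads, by the interaction term of the limma fit across all genes. All 9 were named for a large difference in bodies in this same fit, so the p-values below add no separate support. The share of all genes with such a term is not given here. The difference in bodies minus that in heads was -7.38 ± 0.99 for CR32658 (SE, adjusted p = 0.000193), -7.28 ± 1.07 for CR32652 (adjusted p = 0.000354), -7.27 ± 1.27 for CR9284 (adjusted p = 0.00116), -7.08 ± 1.03 for CR32661 (adjusted p = 0.000339) and -7.00 ± 1.00 for CR32690 (adjusted p = 0.000300), on the log2(TPM + 1) scale. All 5 were below 5 TPM in each head library.

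The other 4 were higher in female body than in male body and their difference in bodies was above that in heads. The difference in bodies minus that in heads was 3.63 ± 0.46 for CR14033 (adjusted p = 0.000123 by limma), 6.39 ± 1.21 for CR45943, 3.39 ± 0.65 for CR32027 and 2.83 ± 0.54 for CR43837. The last 3 are given with no p, since CR45943 reached the threshold only through female body and CR32027 and CR43837 only through ovary. The value of CR45943 rests in part on replicate 1 of male head, with 11.1 TPM against 0 in replicate 2.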

How the results depend on the processing

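Of the differences given for single members, CR34335 and CR40469 between gonads reversed, under the median of ratios only (-0.15 and -0.28); the others kept their direction under the alternatives run, 22 for each. Members lower in female body numbered 191 to 195 and members lower in ovary 193 to 198 when each library was left out, members higher in female body 20 to 28 and members higher in ovary 32 to 42, and the 2 testis classes together 182 to 185. With quantile normalization 160 of the 185 members of the testis classes were kept, the fewest under any alternative. With the replicate block 40 members were higher and 197 lower in female body, 49 higher and 199 lower in ovary, and 185 were in the testis classes. The block moved no count of body or gonad calls by more than 1.5 times. Scaling by the median of ratios moved the median of all genes tested to -0.74 in bodies and -0.67 in gonads, and gave 26 members higher in ovary, 214 lower, 14 in testis alone and 2 in ovary and female body. The 4 members in testis alone were 2 with a pseudocount of 0.1, 10 with quantile normalization and 4 to 15 with a library left out. Ovary and female body held 6 to 11, both heads 6, testis and male body 170 to 181, and ovary and female head 0 to 1 each with a library left out. The class of both bodies had 1 member with a pseudocount of 0.1, all genes above 0, FPKM, quantile normalization, without mt:ATPase8 and in the model of only the libraries compared, 0 with the median of ratios, and 1 to 2 with a library left out. Female body alone had 0 with a pseudocount of 0.1, the median of ratios, quantile normalization, without mt:ATPase8 and in the model of only the libraries compared, and 0 to 1 with a library left out. In heads 1 member was higher in female head with a pseudocount of 0.1, FPKM, the median of ratios, quantile normalization and without mt:ATPase8, and 0 to 1 were higher and 0 to 1 lower with a library left out. For overlap, the opposite strand alone gave 98 members with a median r of 0.105 and the same strand alone 32 with 0.0868. The cause of these moves was not tested. Members in female and head libraries had a median coverage of 0.665 to 6.64, so low values there are poorly measured. With 2 libraries in a group, a difference that misses the test is not shown to be absent.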
